A study of Mus musculus with 12 samples.

Results

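The difference between lights-off and lights-on muscle was compared between wild-type (WT) mice and transgenic (TG) mice that overexpress E4BP4 in the liver. All 12 libraries of the series entered the comparison, 3 in each of 4 groups: WT at Zeitgeber time (ZT) 0, when the lights come on, WT at ZT12, when they go off, TG at ZT0 and TG at ZT12. All were poly(A) RNA sequencing libraries of gastrocnemius, a calf muscle, from 8-week-old C57BL/6 mice, labelled as randomly fed on chow. For each gene the time difference is ZT12 minus ZT0 of the mean log2(TPM + 1), where TPM is a transcript abundance scaled for transcript length and library size. The quantity compared is the time difference in TG minus that in WT, called the interaction below. A positive interaction means that the ZT12 level, relative to ZT0, was higher in TG than in WT. Of the 10475 genes in the deposited table, 10415 were tested. With 2 time points, a time difference is not an amplitude: a rhythm that moved in phase and one that changed in height can give the same difference. The TG label names neither the promoter that drives the transgene nor the number of founder lines, and the labels do not say whether replicates were separate animals, so the spread between libraries may be partly technical.

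E4BP4, encoded by Nfil3, is a basic leucine zipper repressor that binds D-box elements, where it competes with the activators Dbp, Tef and Hlf. These sites sit in the output loop of the circadian clock, in which Arntl (BMAL1) and Clock activate the Per and Cry genes through E-boxes, the PER and CRY proteins repress that activation, and the REV-ERB and ROR nuclear receptors set Arntl transcription through their own element. Muscle holds a clock of its own that also responds to feeding, activity and circulating hormones. The transgene is in another organ, so Nfil3 in muscle does not check the labels. Nfil3 measured 16.9, 18.7 and 16.0 TPM in WT at ZT0, then 7.40, 14.0 and 14.0 at ZT12. In TG it measured 20.3, 13.6 and 14.2 TPM at ZT0 and 7.96, 20.9 and 11.6 at ZT12. The times overlapped in TG and did not in WT, and the interaction was 0.24 (95% interval -0.70 to 1.18, limma). It was 0.54 without TG ZT12 replicate 1 and -0.10 without TG ZT12 replicate 2.

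The reads behind the TPM values, recovered as whole numbers, came to 9.21 to 13.2 per library in the ZT0 groups, 17.7 to 20.2 in WT ZT12 and 13.1 to 15.8 in TG ZT12, in units of 1000000 reads. Depth therefore rose more with time in WT than in TG, and at ZT12 depth and genotype cannot be told apart. WT ZT0 replicate 2 stood apart from the other libraries (median correlation of log2 values with the others 0.946, against 0.975 to 0.985) and held 188 TPM of the lymphocyte marker Coro1a, against 1.62 to 5.82 TPM elsewhere. TG ZT12 replicate 1 had the lowest median TPM (4.96, against 5.63 to 9.26 in the others). No hepatocyte marker of 7 was in the table, which holds only genes that reached 1.0 TPM in WT ZT0 replicate 1. The 11 muscle fibre markers summed to between 76507 and 88307 TPM in every library.

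The promoters of 3 genes show the elements through which this circuit is read, and the values of these genes follow: Per3 with its D-boxes, the type of site that E4BP4 binds, Per1 with an E-box, and Arntl with the element bound by REV-ERB and ROR proteins. Each is a 300-base RefSeq window around a gene start (GRCm38.p6, the mm10 assembly), printed 5′ to 3′ on the gene's strand with the motif in capitals. Per3 lies at chr4:151044616-151044915 (minus strand), Per1 at chr11:69098699-69098998 (plus strand) and Arntl at chr7:113207261-113207560 (plus strand).
Per3: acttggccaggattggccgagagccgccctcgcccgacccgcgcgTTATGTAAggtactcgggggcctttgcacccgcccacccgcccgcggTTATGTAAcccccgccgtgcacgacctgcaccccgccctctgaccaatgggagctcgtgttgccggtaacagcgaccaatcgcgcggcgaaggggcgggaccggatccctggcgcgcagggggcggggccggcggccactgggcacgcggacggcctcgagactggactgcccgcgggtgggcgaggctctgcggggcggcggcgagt
Per1: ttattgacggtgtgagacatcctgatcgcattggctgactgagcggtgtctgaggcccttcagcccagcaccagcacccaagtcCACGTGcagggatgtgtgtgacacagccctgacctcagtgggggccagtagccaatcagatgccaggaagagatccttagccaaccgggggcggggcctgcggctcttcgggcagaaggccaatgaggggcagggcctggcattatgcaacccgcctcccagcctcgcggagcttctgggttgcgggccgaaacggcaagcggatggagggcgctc
Arntl: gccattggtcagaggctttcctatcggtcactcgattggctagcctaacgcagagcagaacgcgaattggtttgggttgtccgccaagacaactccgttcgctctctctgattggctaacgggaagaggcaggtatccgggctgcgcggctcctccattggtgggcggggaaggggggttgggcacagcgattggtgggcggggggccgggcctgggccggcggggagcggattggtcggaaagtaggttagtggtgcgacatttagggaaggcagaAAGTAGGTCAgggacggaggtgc
The motifs searched on both strands were the E-box CACGTG, the D-box as TTATGTAA or TTACGTAA, and the REV-ERB/ROR element, AANT followed directly by AGGTCA. The Per3 D-boxes begin 205 and 158 bases before the start, and the Per1 E-box 166 bases before it. The Arntl element begins 27 bases after the start. The Per3 window is that of the transcript measured. The Per1 window is built around a gene start 1209 bases upstream of that of the measured transcript. The other Per1 window, whose gene start lies 6 bases upstream of that of the measured transcript, held no E-box. The Arntl window is built around a gene start 46 bases downstream of that of the measured transcript, whose own window held no REV-ERB/ROR element. Of 32851 RefSeq windows of the same length, 7.15% held the E-box, 1.06% the D-box and 0.219% the REV-ERB/ROR element. Of the 18 clock genes tested, 15 had at least 1 window, and among these 4 held the E-box in some window (Bhlhe41, Cry1, Per1 and Tef), 1 the D-box (Per3) and 1 the REV-ERB/ROR element (Arntl). Those counts are by gene, and the shares above are by window. By window, 5 of 23 held the E-box, 1 the D-box and 1 the REV-ERB/ROR element. The only Rora window is built around a gene start 636055 bases upstream of that of the measured transcript. A match is a description of letters and not of binding.

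No gene passed the test for a difference between the genotypes. The interaction was called (limma, Benjamini-Hochberg adjusted p under 0.05) for 0 of 10415 genes (0%). The smallest adjusted p was 1.00, and 69 genes (0.663%) had an unadjusted p under 0.05. By limma-voom on the recovered reads 0 genes passed too, and 112 were under 0.05 before adjustment. Uniform p-values would put a share of 0.05 of the genes under 0.05, so the p-values of both fits ran high. Why they did was not tested, and the lack of calls does not show that the genotypes were equal. The design limits what this says of any single gene: the 95% interval of the interaction reached a median of 0.59 to either side. It lay within 1 log2 unit of 0 throughout, a factor of 2 in TPM + 1, for 8363 genes (80.3%). For low genes that is a larger factor in TPM.

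Genes called for time in one genotype separated the times in the other too. In WT muscle 12 genes were called for time (0.115% of those tested), 2 higher (0.0192%) and 10 lower (0.096%) at ZT12. In TG muscle 16 were called (0.154%), 4 higher (0.0384%) and 12 lower (0.115%). Under median-of-ratios scaling these counts were 29 higher and 26 lower in WT, and 7 higher and 24 lower in TG. WT and TG time differences share no library, so the sign in one genotype can be read at the genes that the other chose. They do share the pooled estimate of the spread. A call in one genotype thus favours genes whose libraries lie close together in the other, which favours non-overlap there. The shares of all genes given below are therefore not a matched background. Depth also rose with time in both genotypes. All 12 genes called in WT had the same sign in TG, and in all 12 the TG libraries of the 2 times did not overlap, against 7.08% of all genes that did not overlap in TG in either direction. All 16 genes called in TG behaved likewise in WT, where the background is 10.8%. The TG background was higher under median-of-ratios scaling, with the count given in the closing section, so these shares depend on the scaling. The lists had 10 genes in common, which is 83.3% of the WT list and 62.5% of the TG list. These were Nr1d1, Per2, Angptl7, Pdk4, Arrdc3, Glul, Mid1ip1, Nmb, Cys1 and Adh1. Mylk4 and Odf3l2 passed in WT alone, and Arrdc2, Cebpb, Col5a3, Fbxo32, Fmo2 and Inmt in TG alone. None of these 8 passed the interaction test, so passing in 1 genotype alone is not a difference between them.

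**Figure D1:**
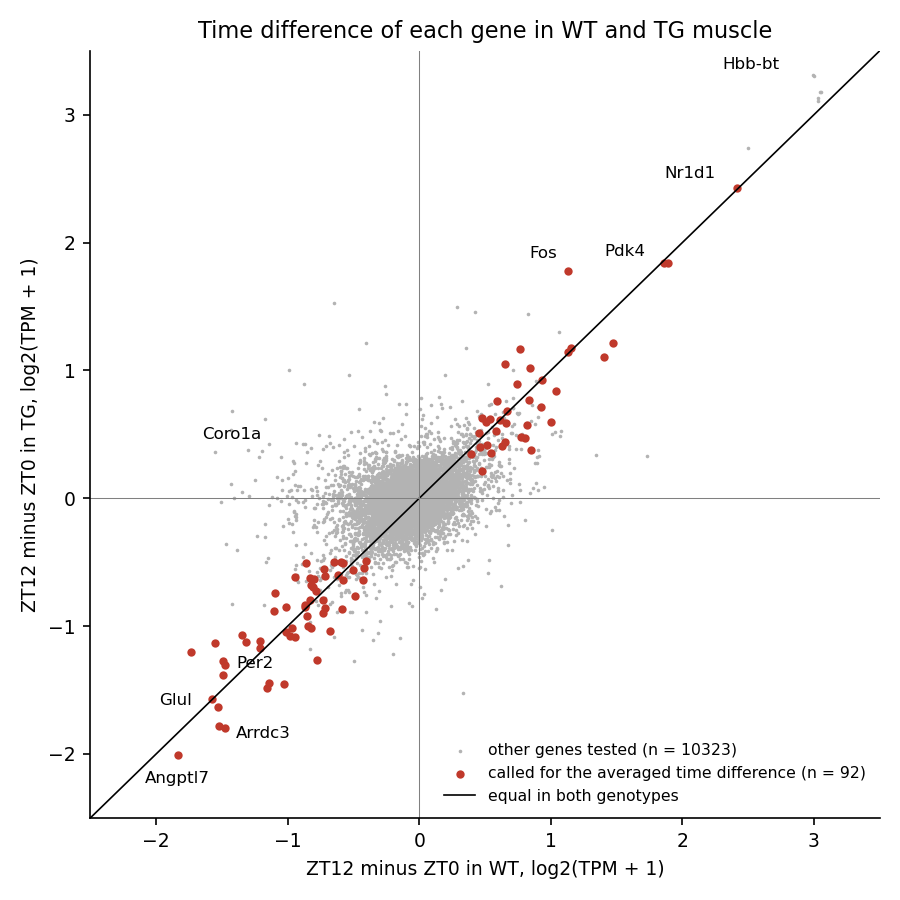
Time difference (ZT12 minus ZT0, log2(TPM + 1)) of each of 10415 genes in WT (x axis) and in TG (y axis), with the 92 genes called for the average of the genotypes as red points and the line of equal difference. The red points lie along the line, with a slope of 0.97, and the cloud of other genes is wider along the WT axis than along the TG axis. Choosing genes by the average favours points near the line.

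To describe how alike the 2 responses were, genes were chosen by the average of the time differences, whose estimate is uncorrelated with the interaction in this balanced design and so favours neither genotype. The average was called for 92 genes (0.883%), 37 higher (0.355%) and 55 lower (0.528%) at ZT12. These were 324 and 95 without both libraries that stood apart. With log2 depth, which rose with time, as a covariate, 2 genes were called for the average, 0 in WT and 2 in TG, so nearly every time call is lost under that alternative. The median absolute time difference of the 92 genes was 0.83 in WT and 0.84 in TG. It was larger in TG for 40 and larger in WT for 52. The slope of TG on WT was 0.97 and that of WT on TG 0.98, with Pearson's r 0.97 across these genes, which are not independent replicates. Of the 92 genes, 88 had non-overlapping times in both genotypes, against 2.12% of all genes that did so with the same sign. Choosing on the average favours non-overlap in both genotypes, as it favours a shared sign, seen in 92 of 92. It also favours slopes and an r near 1, so none of these values is read further. Over all 10415 genes the slope of TG on WT was 0.43, that of WT on TG 0.63 and r 0.52.

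The intervals say how unequal the 2 genotypes could still be. Taking each gene's averaged difference as given, the interval excluded a TG response 0.5 times the WT one for 43 of the 92 genes and one 2 times the WT one for 48. It excluded both for 15. Among the 92, only Txnip had an interval that excluded an interaction of 0, at an unadjusted p of 0.047. The width of these intervals differed from gene to gene, so the size of change that could have been detected did too.

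Over all 10415 genes the picture was less even. The median absolute time difference was 0.12 in WT and 0.09 in TG, the SD across genes 0.26 and 0.22, and the difference was the larger one in TG for 41.1% of genes. That share rested on single libraries: it was 31.1% without WT ZT0 replicate 3 and 33.2% without WT ZT0 replicate 1, but 54.7% without TG ZT12 replicate 1 and 54.8% without TG ZT12 replicate 2. It was 57.2% without both libraries that stood apart, and 14.4% with the log2 depth covariate, the value furthest from 41.1% among the alternatives. Which genotype had the larger time differences over all genes was therefore not settled by these 12 libraries, in which depth rose more with time in WT. The table also holds only genes that reached 1.0 TPM in WT ZT0 replicate 1, which favours high WT ZT0 values among low genes. Its part in these sizes, and in the 57.2% of genes with an interaction above 0, was not tested. For genes with a mean of at least 5 TPM the median absolute differences were 0.11 and 0.09, and the median interaction was 0.01, against 0.03 over all genes. Time differences had the same sign in both for 64.5% of genes, and 221 genes (2.12%) did not overlap between times in either genotype and moved the same way, against 11 (0.106%) that moved opposite ways.

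The core clock genes with the clearest time differences come first, with gene coordinates on mm10. Nr1d1 (chr11:98767932-98775377), which encodes the repressor REV-ERB alpha, measured 12.6, 14.0 and 12.2 TPM in WT at ZT0, then 78.4, 62.5 and 79.5 at ZT12. The TG libraries gave 10.4, 10.3 and 11.6 TPM at ZT0 and 52.1, 57.2 and 80.8 at ZT12. Every ZT12 library lay above every ZT0 library in both genotypes, and the ZT12 libraries of WT and TG overlapped. The time difference was 2.41 in WT and 2.42 in TG, with an interaction of 0.01 (95% interval -0.48 to 0.50).

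Per2 (chr1:91415982-91459328), a repressor of the clock activators, ran the other way. It measured 2.70, 3.25 and 2.38 TPM in WT at ZT0, then 0.343, 0.376 and 0.290 at ZT12. TG values were 2.35, 2.16 and 2.62 TPM at ZT0 and 0.217, 0.529 and 0.443 at ZT12. Per2 fell in both genotypes, with time differences of -1.49 and -1.28 and an interaction of 0.21 (95% interval -0.25 to 0.68). These levels are near the pseudocount, so the log2(TPM + 1) scale understates the change. The ZT12 libraries held as few as 23 reads of Per2.

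Per3 (chr4:151003655-151044665), whose promoter with 2 D-boxes is printed above, measured 3.01, 4.66 and 3.35 TPM in WT at ZT0, then 2.38, 1.50 and 1.53 at ZT12. In TG, levels were 3.39, 3.58 and 2.62 TPM at ZT0 and 1.43, 1.48 and 1.33 at ZT12. The times did not overlap in either genotype, and at ZT12 the 3 TG libraries lay just below the 3 WT ones. The gene differed between times by -0.74 in WT and -0.79 in TG, and the interaction was -0.06 (95% interval -0.61 to 0.50).

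Per1 (chr11:69100158-69109957), also a repressor and a gene that glucocorticoids induce, measured 3.45, 5.58 and 5.23 TPM in WT at ZT0, then 2.18, 1.55 and 2.14 at ZT12. In TG it measured 5.12, 3.32 and 4.71 TPM at ZT0 and 2.19, 2.64 and 2.61 at ZT12. Again no library of one time reached the other time. The time differences were -0.95 in WT and -0.62 in TG, with an interaction of 0.33 (95% interval -0.27 to 0.93). Hlf, a D-box activator, differed by -0.83 in WT and -0.68 in TG, with an interaction of 0.15 (95% interval -0.41 to 0.71). Of the 18 clock genes tested, 4 fell by the average of the genotypes (Per1, Per2, Per3 and Hlf), against 0.528% of all genes. Nr1d1 rose, against 0.355% of all genes, and the other clock genes tested were not called for the average. Most of these calls did not hold with log2 depth as a covariate, under which nearly every call for the average was lost.

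**Figure D2:**
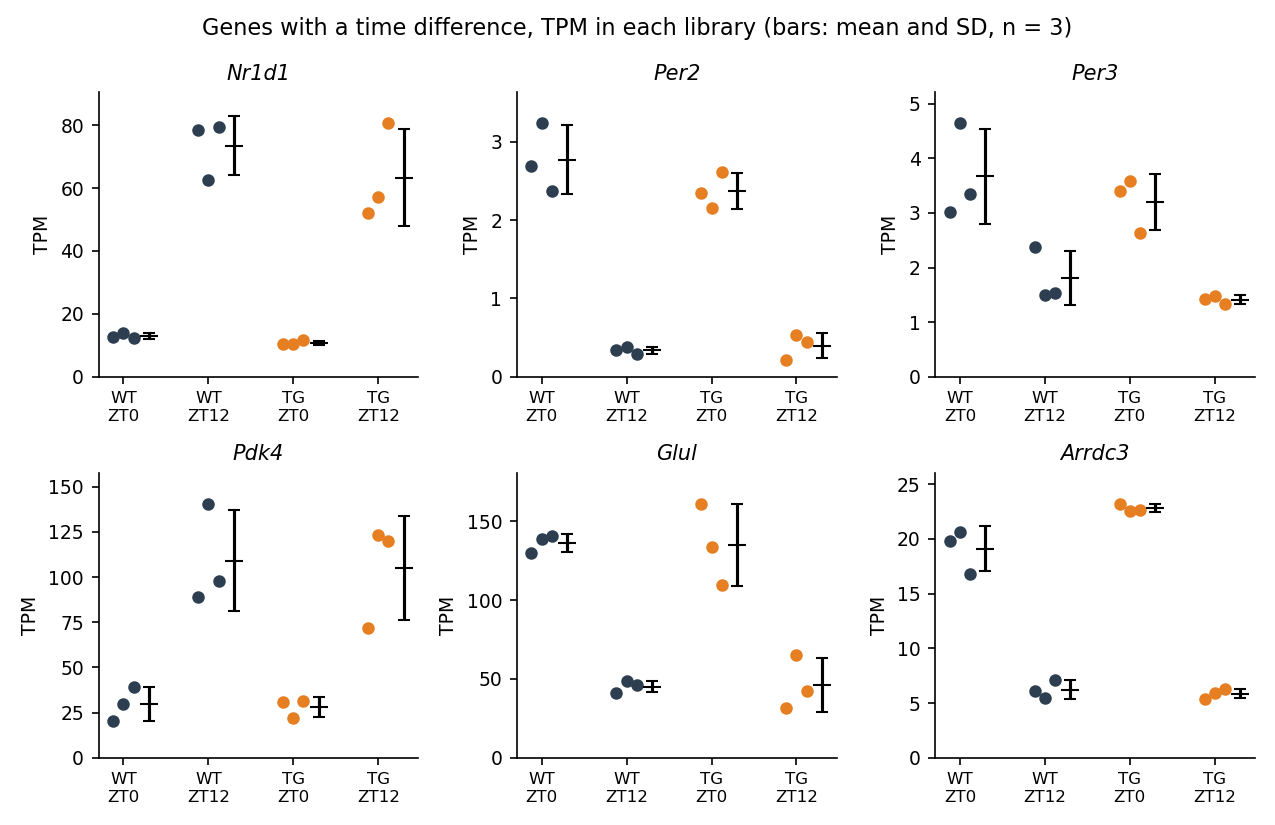
TPM of Nr1d1, Per2, Per3, Pdk4, Glul and Arrdc3 in each library (points; WT dark, TG orange) by genotype and time, with the mean and SD of 3 libraries as bars and linear axes from 0. In all 6 panels the 2 times separate in WT and in TG, and the ranges of WT and TG at ZT12 overlap in all but Per3, where the 3 TG libraries lie just below the WT ones.

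The activators had positive time differences that were not called. Arntl measured 4.52, 5.39 and 3.75 TPM in WT at ZT0, then 8.06, 8.98 and 7.60 at ZT12, against 5.44, 4.42 and 3.84 TPM and then 4.98, 11.7 and 7.88 in TG. The WT times were apart, whereas TG ZT12 replicate 1 lay among the ZT0 libraries. The interaction was -0.07 (95% interval -0.81 to 0.66), and 0.21 (-0.38 to 0.79) without that library. Clock gave time differences of 0.60 in WT and 0.51 in TG, and an interaction of -0.09, which was 0.22 without the same library. Among the repressors, Cry1 gave -0.30 and -0.41 and Cry2 -0.46 and -0.62, in the order WT and TG. Their interactions of -0.11 and -0.16 also changed sign without it, to 0.11 and 0.06.

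Of the other D-box activators, Dbp and Tef were not called for time. Dbp measured 48.1 to 51.5 TPM in WT at ZT0, then 33.3 to 50.3 at ZT12, and in TG 45.9 to 54.2 and then 23.6 to 48.0. The times overlapped in both genotypes, with time differences of -0.21 and -0.47 and an interaction of -0.25 (95% interval -0.95 to 0.44), which was 0.04 without TG ZT12 replicate 2. Tef gave -0.19 in WT and -0.27 in TG. Across the 18 clock genes tested of 20 listed, the interaction was below 0 for 8 and above 0 for 10, where 57.2% of all genes were above 0, with a median of 0.02 against 0.03 over all genes. None was called. Nr1d2, Rora, Csnk1d and Csnk1e had time differences between -0.20 and 0.02 in both genotypes.

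Bhlhe40 (chr6:108660629-108666925), a repressor that competes at E-boxes (DEC1), was the clock gene with the smallest interaction p. It measured 22.0, 26.2 and 26.9 TPM in WT at ZT0, then 47.0, 36.7 and 46.0 at ZT12. The TG libraries gave 28.6, 27.9 and 25.8 TPM at ZT0 and 24.7, 36.1 and 29.5 at ZT12. WT separated the times, whereas in TG the libraries overlapped, with TG ZT12 replicate 1 the lowest of its genotype. The time difference was 0.76 in WT and 0.11 in TG. The interaction was -0.65 (95% interval -1.11 to -0.19, unadjusted p = 0.0097 by limma), which did not pass adjustment over all genes (adjusted p = 1.00). It ran from -0.78 to -0.38 over the alternatives tried, with the value nearest 0 under a covariate for log2 depth, and was -0.52 without TG ZT12 replicate 1. Its paralogue Bhlhe41 (DEC2) gave 0.37 in WT and 0.41 in TG.

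**Figure D3:**
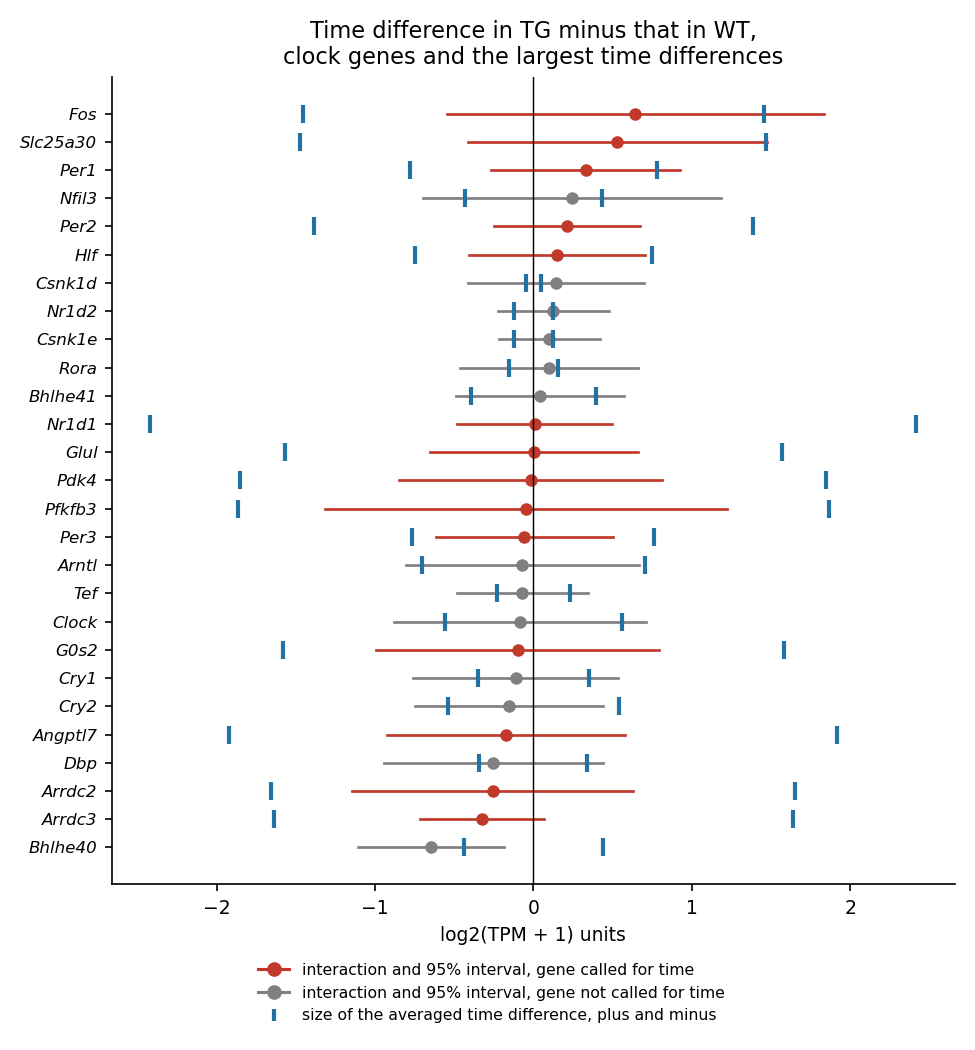
Interaction (time difference in TG minus that in WT, log2(TPM + 1) units) with its 95% interval for the 18 clock genes and the 10 genes of largest averaged time difference, of which Nr1d1 is in both sets. Blue ticks mark plus and minus the averaged time difference, and red marks genes called for it: the interval of Bhlhe40 is the only 1 drawn that excludes 0, and the whole interval lies inside the ticks for 11 of the 14 red genes, the exceptions being Fos, Per1 and Slc25a30.

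Outside the clock, the largest averaged differences included genes of metabolism. Pdk4 (chr6:5483351-5496278), which encodes the kinase that shuts off pyruvate dehydrogenase in fasting, measured 20.5, 29.5 and 39.2 TPM in WT at ZT0, then 88.8, 141 and 97.8 at ZT12. TG values were 31.0, 21.8 and 31.6 TPM at ZT0 and 71.8, 123 and 120 at ZT12. The 2 genotypes spanned much the same range at each time, with time differences of 1.86 and 1.84. The interaction was -0.02 (95% interval -0.85 to 0.81).

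Glul (chr1:153899929-153909723), glutamine synthetase, a glucocorticoid-induced gene in muscle, measured 130, 139 and 141 TPM in WT at ZT0, then 41.2, 48.5 and 45.9 at ZT12. In TG, levels were 161, 134 and 110 TPM at ZT0 and 31.5, 65.0 and 42.1 at ZT12. TG libraries were more spread than WT libraries at both times, around nearly equal means. The gene differed between times by -1.57 in each genotype, with an interaction of 0.01 (95% interval -0.65 to 0.66).

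Arrdc3 (chr13:80883422-80896043), an alpha-arrestin, measured 19.8, 20.6 and 16.8 TPM in WT at ZT0, then 6.14, 5.44 and 7.11 at ZT12. In TG it measured 23.2, 22.6 and 22.6 TPM at ZT0 and 5.40, 5.91 and 6.24 at ZT12. The 3 TG libraries at ZT0 lay above the 3 WT ones, and at ZT12 the genotypes overlapped. The time difference was -1.47 in WT and -1.80 in TG, and the interaction was -0.32 (95% interval -0.72 to 0.07). Its relative Arrdc2 gave -1.53 and -1.78.

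The remaining genes of largest averaged difference varied in precision. Angptl7, a secreted angiopoietin-like protein, gave -1.83 in WT and -2.01 in TG, and G0s2, an inhibitor of the lipase ATGL, -1.53 and -1.63. Pfkfb3, which makes the glycolytic activator fructose 2,6-bisphosphate, gave 1.89 and 1.84 with an interaction interval of -1.32 to 1.23. This interval was the widest among the 92 genes called for the average, so only a large change of size in TG could have been detected. It did lie inside plus and minus the averaged difference of 1.87. Slc25a30, a mitochondrial carrier, gave -1.74 and -1.21, and Fos, an immediate early transcription factor, 1.13 and 1.78. Their interactions were 0.53 and 0.64, the furthest from 0 among these 10 genes, with intervals of -0.41 to 1.47 and -0.55 to 1.84. Without TG ZT12 replicate 1 these interactions were 0.94 and 0.26, and without TG ZT12 replicate 3 that of Fos was 1.14. Pfkfb3 reversed to an averaged difference of -0.08 when log2 depth, which also rose with time, was a covariate.

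Txnip (chr3:96557957-96561857), an alpha-arrestin that limits glucose uptake, was the gene with a time difference whose genotypes were least alike by p. It measured 123, 132 and 107 TPM in WT at ZT0, then 226, 210 and 215 at ZT12. The TG libraries gave 149, 154 and 132 TPM at ZT0 and 151, 241 and 184 at ZT12. The WT times stood far apart, and in TG replicate 1 at ZT12 fell among the ZT0 libraries. The gene differed between times by 0.85 in WT and 0.38 in TG, and the interaction was -0.47 (95% interval -0.92 to -0.01, unadjusted p = 0.047, adjusted p = 1.00 by limma). Without that library it was -0.31 (95% interval -0.68 to 0.06).

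Lists of related genes gave the wider setting, with the caveat that the lists were chosen with earlier results of these data known. Of 16 fasting and FoxO response genes, 3 rose by the average (Pdk4, Fbxo32, an atrophy ubiquitin ligase, and Txnip) and 2 fell (Arrdc2 and Arrdc3), against 0.355% and 0.528% of all genes. The interaction of this list had a median of -0.07. Of 16 glucocorticoid response genes, 4 fell (Fkbp5, Tsc22d3, Per1 and Glul), against 0.528% of all genes, and none rose, and the interaction had a median of -0.04. Fkbp5, a chaperone of the glucocorticoid receptor, gave -1.10 in WT and -0.74 in TG, and Tsc22d3, encoding GILZ, -0.87 and -0.85. Of 13 common clock outputs, 4 fell (Usp2, Tspan4, Tsc22d3 and Fkbp5), against the same 0.528%, and the median interaction was 0.05, against 0.03 over all genes. Of 14 lipid and sterol synthesis genes, 2 fell, against 0.528% of all genes, and none rose. These were Mid1ip1 (-1.49 in WT and -1.38 in TG) and Thrsp (-1.21 and -1.12), both regulators of fatty acid synthesis. The interaction of that list had a median of 0.13, which was -0.09 without WT ZT0 replicate 2. No member of these lists was called for the interaction.

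The smallest interaction p-values over all genes of at least 5 TPM included several genes of connective tissue cells. In ascending order of p these were Dcn, Serpinf1, Smoc2, Igfbp6, Bhlhe40, Cdc42ep2, Myoc, Rnase4, Nbl1 and Ndn, all with negative interactions and all with an adjusted p of 1.00. Dcn (chr10:97482331-97518163), decorin, a collagen-binding proteoglycan, measured 216, 186 and 190 TPM in WT at ZT0, then 271, 246 and 260 at ZT12. TG values were 222, 251 and 224 TPM at ZT0 and 230, 231 and 190 at ZT12. WT was higher at ZT12 in all 3 libraries, and TG showed no separation. The time difference was 0.39 in WT and -0.10 in TG, and the interaction was -0.49 (95% interval -0.82 to -0.17, unadjusted p = 0.0064).

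Serpinf1 (chr11:75410029-75422623), which encodes the secreted factor PEDF, had the same layout. It measured 52.4, 46.9 and 43.6 TPM in WT at ZT0, then 77.9, 68.8 and 72.6 at ZT12. In TG, levels were 52.5, 58.4 and 54.4 TPM at ZT0 and 56.1, 65.3 and 44.3 at ZT12. The interaction was -0.62 (95% interval -1.03 to -0.21, unadjusted p = 0.0066). TG ZT12 replicate 3 was its lowest TG library, and without it the interaction was -0.47.

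Igfbp6 (chr15:102144186-102149512), a binding protein with a preference for IGF2, measured 46.1, 42.5 and 46.7 TPM in WT at ZT0, then 67.5, 59.3 and 67.4 at ZT12. In TG it measured 49.3, 60.2 and 48.6 TPM at ZT0 and 49.2, 54.9 and 33.3 at ZT12. The WT times did not overlap and the TG times did. The interaction of -0.73 (95% interval -1.23 to -0.23) became -0.52 without TG ZT12 replicate 3. Myoc, myocilin, had the widest gap of the 10. It measured 24.9 to 28.0 TPM in WT at ZT0, then 36.0 to 41.6 at ZT12, and in TG 29.3 to 41.1 and then 15.0 to 36.2. Its interaction of -1.01 became -0.67 without that library, which was the lowest of all 12. Smoc2, a matricellular protein, gave 0.33 in WT and -0.13 in TG, with an interaction of -0.46.

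**Figure D4:**
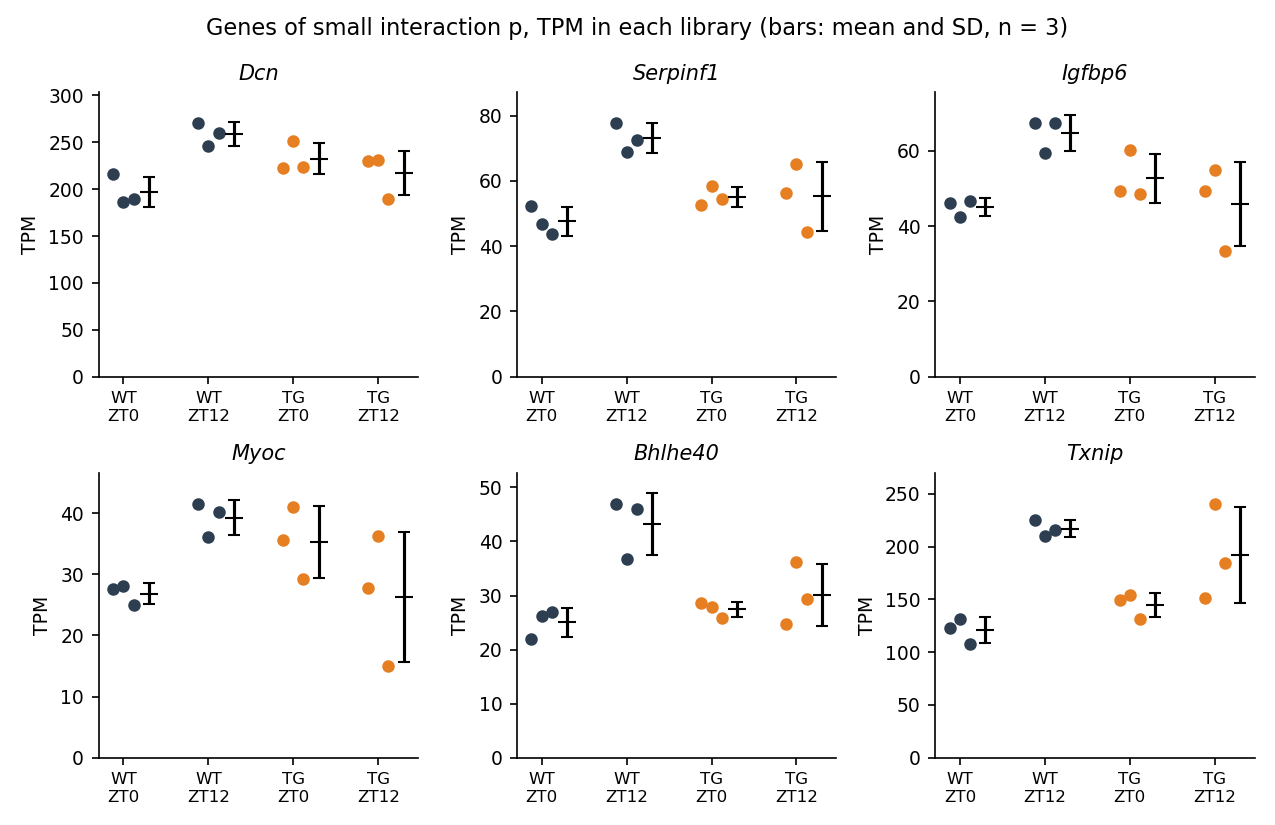
TPM of Dcn, Serpinf1, Igfbp6, Myoc, Bhlhe40 and Txnip in each library (points; WT dark, TG orange) by genotype and time, with the mean and SD of 3 libraries as bars and linear axes from 0. In every panel the WT times do not overlap and the TG times do. The panels were picked among genes of small interaction p, which favours such a layout. Of the 10 genes of smallest p, Ndn overlapped in WT and separated in TG, and Cdc42ep2 separated in both. None of the 6 interactions passed adjustment over all genes.

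Markers of fibro-adipogenic progenitors, the collagen-making stromal cells of muscle, include 3 of these genes (Dcn, Serpinf1 and Smoc2), so the list is not independent of them. All 11 listed markers had a negative interaction, with a median time difference of 0.38 in WT and -0.08 in TG and a median interaction of -0.43, against 0.03 over all genes. Of the 11, 4 had an unadjusted p under 0.05, against 0.663% of all genes, and none was called. Their summed level was 870 to 1000 TPM in WT ZT0, 1108 to 1215 in WT ZT12, 955 to 1214 in TG ZT0 and 879 to 1074 in TG ZT12. The sums did not overlap between times in WT and did in TG. Pi16 gave 0.38 in WT and -0.12 in TG, Dpt, a dermal matrix protein, 0.51 and -0.08, and Clec3b 0.36 and -0.06. Ly6a and Col15a1 gave interactions of -0.06 and -0.01. With each library left out in turn, 9 to 11 of the 11 were negative. The median was -0.29 without TG ZT0 replicate 2 and -0.52 without TG ZT12 replicate 2, the ends of its range. In bulk tissue, fewer cells of a type and less RNA per cell cannot be told apart, and the share of connective tissue in each piece was not measured.

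Other lists leaned in the same direction, most of them on fewer libraries. Among 20 extracellular matrix genes 18 had a negative interaction, with a median of -0.29, but it was 13 genes and -0.05 without TG ZT12 replicate 1. Fbn1, fibrillin, the member called for the average, gave 1.41 in WT and 1.10 in TG. All 12 slow fibre genes had a negative interaction (median -0.24). Without WT ZT0 replicate 3 the count was 5 and the median 0.22, and without TG ZT0 replicate 2 or without WT ZT12 replicate 3 the count was 6. Among slow fibre genes, the calcium-binding protein Casq2 gave 0.70 in WT and 0.02 in TG, and Myoz2, a Z-disc protein, 0.54 and -0.11. Of 19 fatty acid oxidation genes 18 had a negative interaction (median -0.18), and 11 (median -0.03) without WT ZT12 replicate 2. Of 21 mitochondrial respiration genes 19 did (median -0.10), and 14 to 21 did with each library left out in turn.

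Lists that leaned the other way also varied with single libraries, to differing degrees. Of 14 lipid and sterol synthesis genes, 10 had a positive interaction, and 3 did without WT ZT0 replicate 2. Of 14 immediate early genes, 11 had a positive interaction, with a median of 0.50, which was 0.16 without WT ZT0 replicate 2. Junb, the member with the largest interaction (1.21, 95% interval -0.22 to 2.64), measured 3.65, 18.4 and 3.18 TPM in WT at ZT0, then 1.96, 2.36 and 2.52 in TG. At ZT12 it measured 8.14, 8.65 and 6.73 TPM in WT and 10.8, 9.88 and 5.14 in TG. The high ZT0 value is that of the WT library rich in lymphocyte markers. Without that library 9 of the 14 immediate early genes still had a positive interaction.

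Levels of other cell types' genes moved with time or with single libraries beside these results. Schwann cell markers, 6 of 9 listed in the table, summed to 117 to 133 TPM in WT ZT0, 77.9 to 135 in WT ZT12, 95.2 to 157 in TG ZT0 and 32.3 to 134 in TG ZT12. Their median interaction of -0.60 was -0.22 without TG ZT12 replicate 1, the lowest library. Red cell markers summed to 142 to 223 TPM over the 6 ZT0 libraries. At ZT12 they summed to 1586, 4331 and 225 TPM in WT and 3012, 4639 and 203 in TG, so replicates 1 and 2 were high and replicate 3 low in both genotypes. Their median time difference was 3.02 in WT and 3.14 in TG, and no member was called for time. The part that cell makeup, red cell content or depth has in the time differences was not tested gene by gene.

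**Figure D5:**
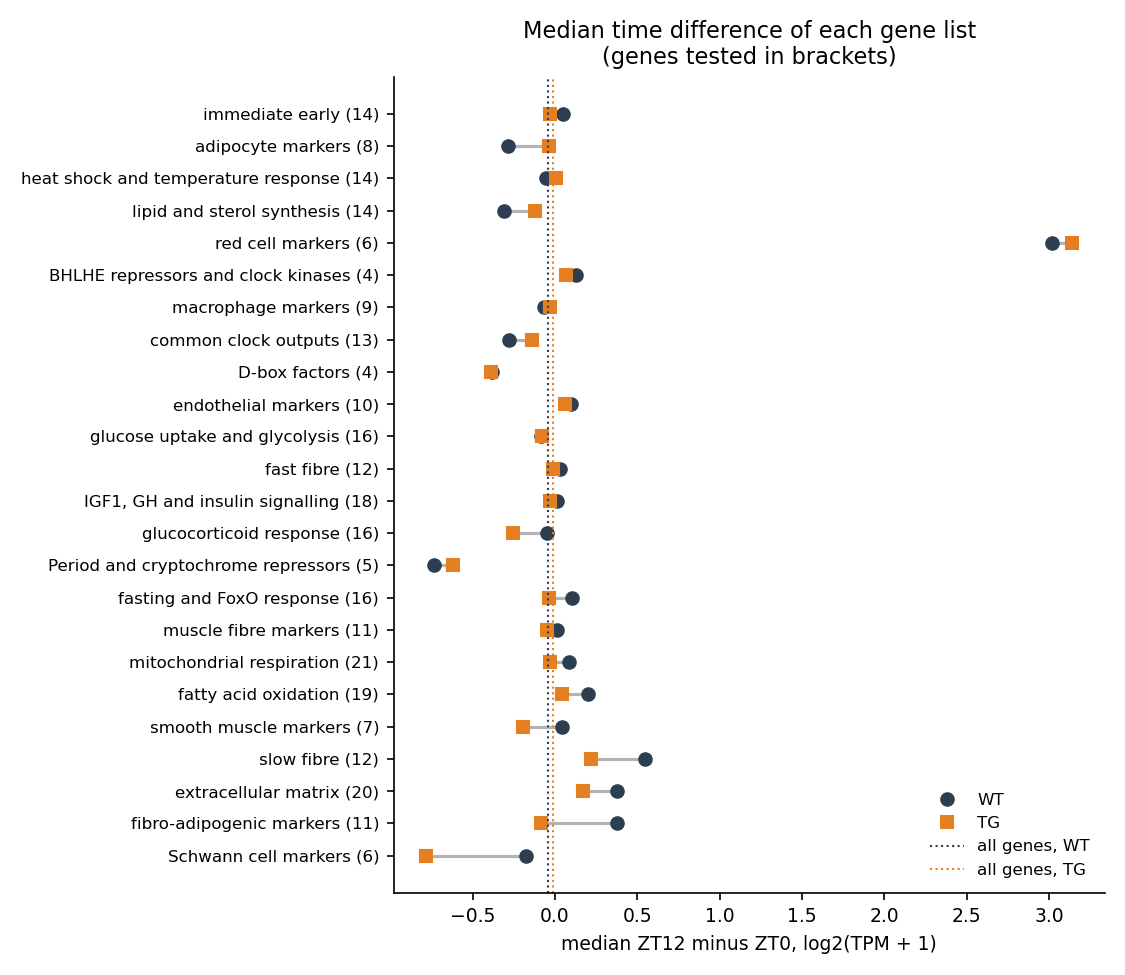
Median time difference (ZT12 minus ZT0, log2(TPM + 1)) of each gene list in WT (circles) and TG (squares), ordered by the median interaction of its members, with the number of genes tested in brackets and dotted lines at the medians over all genes (-0.05 in WT and -0.01 in TG). The clock lists lie close together in the 2 genotypes, and the Schwann cell and fibro-adipogenic markers lie furthest apart in the negative direction. Lists with fewer than 4 tested genes are left out.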

How the data were processed

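Poly(A) RNA of gastrocnemius muscle was sequenced in 12 libraries, 3 each of WT and TG mice at ZT0 and at ZT12, with groups taken from the labels. Per the labels, the library kit did not keep strand, so reads of genes that overlap on opposite strands are mixed. Per the submitters' processing notes the build was mm10 and the tools included STAR, HOMER 4.11.1, DESeq2 and bcl2fastq. The authors deposited TPM values, abundances scaled for length and library size, for 10475 genes. Every gene reached 1.0 TPM in WT ZT0 replicate 1, although 134 were at 0 in some other library. Gene coordinates and transcript lengths came from the other deposited tables, whose 12 per-library columns, made within 1 time each, were not used.

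The time difference was analysed with limma 3.58.1 (trend, R 4.3.3) on log2(TPM + 1), fitting the 4 group means over all 12 libraries together. The design had edgeR in reserve for raw counts, and it was not needed. A gene was tested if 3 or more libraries held 1 TPM of it, and called at a Benjamini-Hochberg adjusted p under 0.05. Contrasts were ZT12 against ZT0 in each genotype, their average and their difference (the interaction). A pseudocount of 1 understates changes of low genes. The fit was tested on simulated data. TPM times length gave whole reads (within 0.1 read, judged under 500 reads) for 99.81 to 99.98% of values, which gave the depth. That depth leaves out reads of genes not in the table. Figures were drawn with matplotlib 3.10.9 in Python 3.11.15 (pandas 2.3.3, numpy 2.4.6).

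Named genes were the 10 of smallest interaction p with a mean of at least 5 TPM and a length of at least 300 bases, all clock list genes, the 10 largest averaged time differences among called genes, the 2 smallest interaction p in each other list, and up to 5 genes that moved opposite ways without overlap. Of the clock lists, 1 gene is not reported here and enters no list count. Other genes named were chosen after their values were seen. The genes, lists and comparison were chosen with earlier results of these data known. Lists are described by counts and medians, with no set test. Alternatives were median-of-ratios scaling, no filter, a filter of 5 TPM, pseudocounts of 0.1 and 5, a replicate block, limma-voom on recovered reads, a log2 depth covariate, each library left out, and both libraries that stood apart left out. Reads thinned to the shallowest library were added after seeing the data.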

Additional observations from a re-analysis of the deposited data

Results flagged for a closer look

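Among genes with a mean of at least 5 TPM, 4 had libraries that did not overlap between times in either genotype and moved opposite ways. Such genes numbered 11 of all 10415 tested (0.106%), and none of these 4 differences was called by limma (adjusted p = 1.00). Cdc42ep2, an effector of the GTPase CDC42, had an interaction of -0.6147. It measured 13.6 to 15.1 TPM in WT at ZT0, then 15.2 to 19.3 at ZT12, and in TG 16.6 to 17.7 and then 10.5 to 15.5. The WT groups were close to touching, so the separation is narrow there. Cfap36, a cilia and flagella associated protein, had an interaction of 0.4381, with 5.36 to 6.04 TPM in WT at ZT0, then 4.57 to 5.05 at ZT12, against 4.107 to 4.66 and then 4.97 to 5.46 in TG. Uchl3, a ubiquitin hydrolase, had 0.3501, with 11.3 to 12.5 TPM in WT at ZT0, then 9.66 to 11.1 at ZT12, against 9.81 to 10.8 and then 11.4 to 12.5 in TG. Glo1, glyoxalase, which detoxifies methylglyoxal, had -0.1935, with 28.1 to 28.5 TPM in WT at ZT0, then 30.1 to 31.8 at ZT12, against 29.4 to 31.8 and then 28.2 to 29.1 in TG. All 4 kept the sign of the interaction under every alternative tried.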

How the results depend on the processing

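The interaction was called for 0 genes under every alternative, while 39 to 509 genes were under 0.05 before adjustment. The smallest adjusted p (limma) ran from 0.595, without TG ZT12 replicate 3, to 1.00. Counts of time calls were less stable. Median-of-ratios scaling gave 55 genes in WT, 31 in TG and 204 for the average, limma-voom 56, 28 and 194, a log2 depth covariate 0, 2 and 2, and leaving out both libraries that stood apart 73, 71 and 419. With 1 library left out, the counts ran from 4 (without WT ZT0 replicate 1) to 35 (without TG ZT12 replicate 1) in WT, from 6 (without TG ZT0 replicate 2) to 21 (without WT ZT0 replicate 2) in TG, and from 47 (without WT ZT12 replicate 3) to 157 (without TG ZT12 replicate 1) for the average. Reads thinned to the shallowest library, an alternative chosen after seeing the data, gave 0 for the interaction, 13, 15 and 84. Median-of-ratios scaling raised the genes with non-overlapping times to 1124 in TG, 377 in both the same way and 18 in both opposite ways. The slope over the 92 genes called for the average ran from 0.881 to 1.005. Pfkfb3 reversed under the depth covariate (-0.082). Single gene results were followed for 23 genes. The interactions among them had no call to lose, since none was called under any alternative, and they count as unchanged where the sign held. With these included, 489 of the results stayed on their side of the threshold with the same sign. The other 16 lost their call: Fos with a pseudocount of 5, by limma-voom, with the depth covariate and without each of several libraries, and Angptl7, Pdk4, Arrdc2, G0s2, Glul and Slc25a30 with the depth covariate. With that covariate 2 genes in all were called for the average, so calls of genes outside these 23 were lost too. The causes were not tested.

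Over all genes and all pairs of groups, replicate numbers showed no clear pairing. Residuals of 18 pairs with the same number had a median correlation of 0.06 (-0.35 to 0.29), against -0.02 for 36 other pairs. The red cell markers did follow the replicate number at ZT12, and pairs within ZT12 were not examined apart. With the replicate block the interaction had 0 calls, WT 15, TG 18 and the average 96.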

Other observations

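Among the 92 genes called for the averaged time difference were regulators of muscle outside the lists above. Myod1, the myogenic transcription factor, gave -1.21 in WT and -1.17 in TG, and Nmrk2, a nicotinamide riboside kinase, 1.13 and 1.14. Thra, a thyroid hormone receptor, gave 0.61 in each genotype, and Noct, a clock-controlled phosphatase, -0.94 and -1.09. Ankrd1 and Ankrd23, stretch-responsive ankyrin repeat proteins, gave 1.04 and 0.77 in WT and 0.83 and 0.48 in TG. Cebpb gave -0.78 in WT and -1.27 in TG, and its interaction of -0.49 (95% interval -1.06 to 0.08) was not called by limma. These genes were chosen after their values were seen.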
